A study of Lotus japonicus with 6 samples.

Results

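The MYB genes of Lotus japonicus other than LjMYB14, LjMYB76a, LjMYB27, LjMYB65 and LjMYB81a were followed on a custom array as leaf of wild type plants was set against leaf of lines labelled as overexpressing LjMyb14. The set was chosen by name: every non-control spot whose gene name held MYB in any case was taken, those 5 genes were left out, and names that share a locus identifier counted as 1 gene. This gave 243 of the 2881 genes on the array, under 289 names and with 519 probes. The rule itself uses names only. The genes it leaves out include some, such as LjMYB76a, that earlier results of these data had shown to differ strongly. LjMYB14, also left out, showed no such difference, as given below. The counts of calls below therefore describe the rest of the family and not the MYB family as a whole.

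Total RNA came from leaf of the MG20 germplasm, an accession of the model legume Lotus japonicus, and all plants came from in vitro culture on 1/2 MS, a standard medium for plant tissue culture. There were 3 wild type samples and 3 independent transgenic lines in the same germplasm, in which LjMyb14 was placed behind the ubiquitin promoter of Lotus for constitutive expression. Each RNA was labelled with Cy3 and hybridised to 1 array of a 1-colour Agilent design that carries regulatory and secondary metabolism genes. Each value is a relative log2 signal, the log2 intensity of a probe less the 75th percentile of its array. A difference counts as a call where the limma p, after Benjamini-Hochberg adjustment over all 5039 tested probes, was under 0.05.

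MYB proteins are transcription factors that bind DNA through a repeated helix-turn-helix motif. Plants have a large family of members with a pair of these repeats (R2R3), which regulate phenylpropanoid and flavonoid synthesis, cell wall and cuticle formation, cell fate and stress responses, some as activators and some as repressors. Related groups carry a single MYB-like repeat. The GARP family, named in part after the GOLDEN2 regulator of chloroplast development in maize, is one of them, and another is recognised by the amino acid motif SHAQKY within the repeat.

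Before the members, 3 facts of the arrays bear on every value below. The gap between wild type arrays 1 and 3 was close to spot noise. Its variance was 0.599 times that given by replicate spots within the arrays and 1.17 times that given by matched spots between them, where the other 5 pairs within a group had 4.43 to 19.0 and 5.79 to 28.5 times. They were averaged into 1 sample, so n = 2 for wild type and n = 3 for the lines. The gene named in the label did not show the labelled rise: at its tested probe LjMYB14 averaged -5.59 ± 0.55 (SD, n = 2) for wild type against -5.48 ± 0.76 (SD, n = 3) for the lines, while LjMYB76a, which was left out of the set, was 186-fold higher (adjusted p = 0.000189), so the lines are called here only by their label and number. Line 2 stood apart on 7 spike-in probes, whose mean there was 3.87 on the relative scale, where all other arrays lay from 2.68 to 3.12. Leaf identity could be checked only with the YABBY code, of which 5 or 6 of 6 genes were above background on each array, and 41 to 55 of 86 genes of the MADS-box code, which includes floral regulators, were above background as well. The part of these features in the results below was not tested beyond the fits that leave arrays out or change the scaling.

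Most of the family was measurable in leaf. On each array 182 to 194 of the 243 genes had a probe well above background (74.9% to 79.8%), against 81.0% to 87.5% of all genes on the array. A gene was tested if a probe was above background on at least 3 of the 6 arrays, which kept 192 members with 375 probes and left 51 untested. Of those 51, 25 were above background on no array, among them LjMYB100, LjMYB106, LjMYB110 and LjMYB111. The other 26 were above background on 1 or 2 arrays: 8 only in wild type, 10 only in the lines and 8 in both. No member was above background on all arrays of one group and on none of the other. By the name classes of the array, the tested members were 101 of 135 numbered genes, 28 of 30 GARP-G2-like, 22 of 26 SHAQKY, 38 of 46 MYBother and 3 of 6 genes named after genomic clones or with other codes.

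Few members were called as different between the lines and wild type. At the brightest probe of each gene 3 of 192 members were called (1.56%), against 3.30% of all tested genes. The 2 called higher (1.04%) were LjMYB32 and LjMYB39, where 2.21% of all tested genes were called higher. LjMYB44 alone was called lower (0.52%), where 1.09% of all tested genes were. These shares lie below the background by a few genes only, and the background includes the genes that the rule left out. Over probes, 3 of the 375 were called higher, both of LjMYB32 and 1 of LjMYB39, and 1 was called lower, against 2.30% and 1.13% of all tested probes.

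Fold changes of the members, lines over wild type, ran from -2.10 to 1.89 on the log2 scale, and 22 members (11.5%) had a fold estimate of at least 2 in either direction, 8 higher and 14 lower, against 11.3% of all genes. The median was -0.11 over the members, with 83 positive and 109 negative, and -0.09 over all genes. At an unadjusted p under 0.05 there were 13 members higher and 29 lower (6.77% and 15.1%), against 9.53% and 10.0% of all genes. All 3 lines lay above all 3 wild type arrays for 20 members (10.4%) and below them for 46 (24.0%), where 15.4% and 21.1% of all genes did so. The 95% confidence interval lay wholly within a 2-fold change either way for 69 members (35.9%), against 41.0% of all genes, so for most of the others a 2-fold difference could not be told from none with these arrays.

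**Figure D1:**
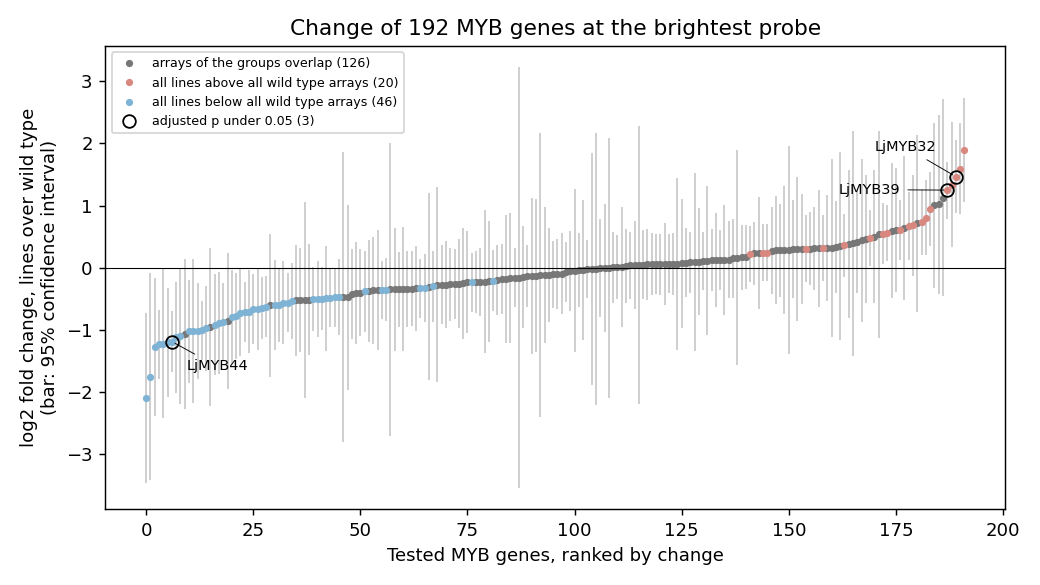
Log2 fold change of each of the 192 tested MYB genes at its brightest probe, ranked along the horizontal axis, with its 95% confidence interval as a bar. Coloured points are genes whose 3 lines lie above (20) or below (46) all wild type arrays, circles mark the 3 called genes, and most intervals cross 0.

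LjMYB32 was the higher of the called members by fold. Its relative log2 signal was -3.10, -3.58 and -3.18 on wild type arrays 1, 2 and 3 and -1.78, -1.80 and -2.10 in lines 1, 2 and 3. The groups did not overlap and were more than 1 log2 unit apart. The group means were -3.36 ± 0.31 (SD, n = 2) and -1.89 ± 0.18 (SD, n = 3), a rise of 2.76-fold (log2 fold change 1.47, 95% confidence interval 0.87 to 2.06, limma adjusted p = 0.0437). Its dimmer probe gave 1.39 (adjusted p = 0.0323).

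LjMYB39 also rose. Its brightest probe read -3.79, -3.66 and -3.71 in wild type and -2.46, -2.40 and -2.51 in the lines. The 3 lines lay within 0.11 of each other and well above wild type. It rose 2.38-fold (-3.71 ± 0.06 to -2.46 ± 0.05; log2 fold change 1.25, interval 0.79 to 1.71, adjusted p = 0.0337). At its other probe of the same name the change was 0.95 (adjusted p = 0.0804), and a dim probe named LjMYB39_est, above background on 3 arrays, gave 0.80 with an interval from -0.77 to 2.38.

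LjMYB44 was the only member called lower. It was at -2.41, -2.76 and -2.57 in wild type and at -3.86, -3.82 and -3.78 in the lines. All lines lay below all wild type arrays and within 0.083 of each other. The fall was 2.29-fold (-2.63 ± 0.19 to -3.82 ± 0.04; log2 fold change -1.19, interval -1.69 to -0.70, adjusted p = 0.0450), and the dimmer probe gave -1.29 (adjusted p = 0.0577).

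These 3 calls rest on few arrays. Their direction held in all 17 alternative settings, but LjMYB32 passed the threshold in 10 of them, LjMYB39 in 8 and LjMYB44 in 7. Without wild type array 2 the adjusted p was 0.333, 0.280 and 0.274 for LjMYB32, LjMYB39 and LjMYB44, without wild type arrays 1 and 3 it was 0.208, 0.295 and 0.347, without line 1 it was 0.189, 0.169 and 0.203, and without line 3 it was 0.0624, 0.0662 and 0.0845. Line 1 and the wild type arrays shared a row of the slide, lines 2 and 3 lay in the other, and line 1 alone differed from the wild type mean by 1.58, 1.24 and -1.24 on the log2 scale for the 3 genes. With that row as a block the adjusted p was 0.234, 0.252 and 0.272. Scaled on the spike-in probes the log2 fold changes were 1.25, 1.03 and -1.41, with adjusted p of 0.650, 0.874 and 0.565. With normexp background correction the 3 changes shrank to 0.75, 0.48 and -0.53.

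A further 3 members had all lines beyond wild type with adjusted p just above the threshold. LjMYB58 had the largest positive change of the family: -1.90, -2.18 and -1.96 in wild type against 0.33, -0.14 and -0.68 in the lines, or 1.89 on the log2 scale (interval 1.05 to 2.73, adjusted p = 0.0509). Line 1 was the highest and line 3 the lowest, about 1 log2 unit apart. The 2 other probes, 1 of them named LjMYB58_est, gave 1.52 and 1.92. LjMYB7 was at -4.00, -4.44 and -3.99 in wild type and -2.28, -3.00 and -2.61 in the lines, with 1.59 at this probe (interval 0.86 to 2.32, adjusted p = 0.0566) and 1.34 at the other. LjMYB36 was at -1.30, -1.62 and -1.14 in wild type and -2.64, -2.79 and -2.56 in the lines. It was the lowest of the near misses, with -1.24 (interval -1.79 to -0.69, adjusted p = 0.0514) at the brightest probe and -1.63 (adjusted p = 0.0975) at the other, where line 2 was the least low of the 3. Under the alternatives LjMYB58 was called in 6 of 17 settings, LjMYB36 in 6 and LjMYB7 in 5, without a change of direction. LjMYB18, named after its values were seen, lay next to these with -1.01 (interval -1.49 to -0.53, adjusted p = 0.0587): it read -5.00, -5.33 and -5.51 in wild type and -6.42, -6.22 and -6.26 in the lines. Its probe was above background on only 1 of the 3 line arrays, and it was called in 2 settings.

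**Figure D2:**
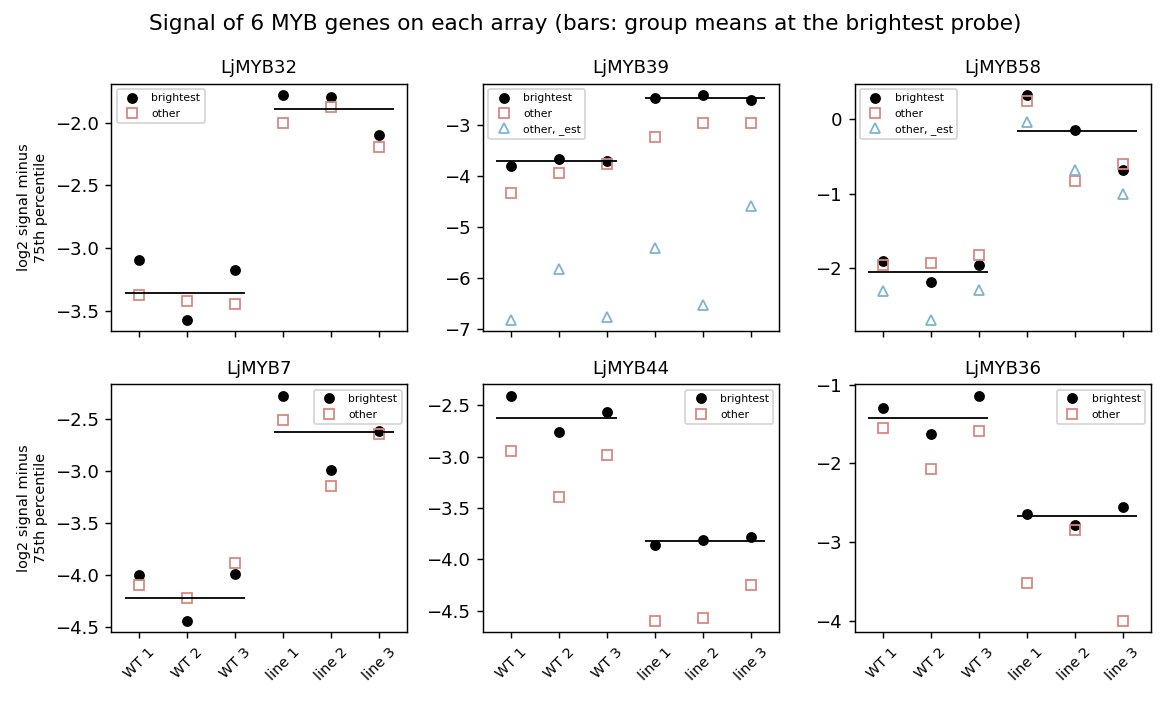
Relative log2 signal of the 3 called members and the 3 nearest to the threshold on each of the 6 arrays, with 1 symbol per probe and horizontal bars for the group means at the brightest probe (wild type arrays 1 and 3 averaged first). Lines and wild type separate in every panel at the brightest probe, and each panel has its own vertical scale.

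Among the other members with the lines all above wild type, LjMYB47 had a log2 fold change of 1.34 (adjusted p = 0.160), and line 2, at -1.23, was closer to wild type (-2.10 to -1.61) than lines 1 and 3 (-0.02 and -0.37). LjMYB146, above background on 5 arrays, gave 0.95 (adjusted p = 0.111). LjMYBother34 gave 0.81 and 0.92 at its 2 probes (adjusted p = 0.158 and 0.101). LjMYB113 gave 0.74 and 0.73 (adjusted p = 0.146 and 0.255). None of these 4 passed the test.

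On the lower side, again without a call, LjMYBother19 had the largest negative change of the family: -2.44, -1.51 and -2.30 in wild type and -4.91, -3.23 and -3.99 in the lines (log2 fold change -2.10, interval -3.48 to -0.73, adjusted p = 0.119), and -1.40 at its other probe (adjusted p = 0.0969). The lines spread over 1.68 log2 units but stayed below wild type. LjMYBother38 was level in wild type (0.73, 0.72 and 0.69), and lines 1 and 3 read -1.71 and -1.74 while line 2 read 0.30. Its change was -1.76 with an interval from -3.43 to -0.10 (adjusted p = 0.237), and the second probe, with -1.73, again had line 2 between wild type and lines 1 and 3. LjMYB124 gave -1.28 and -1.35 at its 2 probes (adjusted p = 0.203 and 0.132), with line 3 the least low. LjMYB34 gave -1.23 at its brightest probe, where wild type array 2 (-2.07) stood above arrays 1 and 3 (-3.45 and -3.55), but -0.15 and -0.39 at its other probes.

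Some names on the array gave nearly the same signal and may not be separate genes. LjMYB114 and LjMyb_Unk_chr3.LjT47O18.70.nc, whose name places it on chromosome 3, differed by no more than 0.12 on any array at their brightest probes, with log2 fold changes of -1.13 and -1.21 (adjusted p = 0.173 and 0.151). In both, lines 1 and 3 lay lowest and line 2 lay between them and wild type, for example -3.48, -2.56 and -3.47 in lines 1, 2 and 3 against -1.80, -2.11 and -1.84 in wild type for the clone name. LjMYB1 and LjMyb1_chr6.CM1613.30.nc differed by no more than 0.104 and 0.067 at their 2 pairs of probes. LjMYB1 was at -0.60, -0.36 and -0.54 in wild type and -1.82, -0.60 and -2.04 in lines 1, 2 and 3. Lines 1 and 3 were thus more than 1 log2 unit below wild type while line 2 lay at its level, and the change of -1.02 had an interval from -2.19 to 0.14 (adjusted p = 0.300). LjMYB90 and LjMYB90a also moved alike (-0.68 and -0.78, adjusted p = 0.193 and 0.214). Since the files used here pair no sequence with these probes, whether such names are 1 gene was not tested, and each stands as its own gene in the counts.

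The numbered genes were grouped in lists of Arabidopsis MYB numbers, each headed by a role that need not hold for every number in it. Correspondence of the Lotus gene to the Arabidopsis gene of the same number was not tested: 28 members carry numbers above the highest in these lists, and 1 gene is named both LjMYB12a and LjMYB31. The numbers of Arabidopsis subgroup 4, which holds repressors of phenylpropanoid synthesis, are carried by 6 Lotus genes. All 6 were tested and LjMYB32 alone was called, as higher, where 2.21% of all tested genes were. By limma 3 were higher and 0 lower at an unadjusted p under 0.05, against 9.53% and 10.0% of all genes. The median of the 6 was 0.81 against -0.09 over all genes. LjMYB7 and LjMYB32 are given above, and LjMYB6 was at 1.00, LjMYB4 at 0.61, LjMYB3 at 0.31 and LjMYB8 at -0.19. The last 4 are named to complete the list. LjMYB4 read 1.18, 1.19 and 1.11 in wild type and 1.84, 1.86 and 1.64 in the lines, without overlap (adjusted p = 0.172). LjMYB6 was not separated, since wild type array 2 (-1.46) lay above line 3 (-1.81), with an interval from -0.33 to 2.33.

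LjMYB58 and LjMYB50 were the members with the smallest p among numbers that in Arabidopsis belong to secondary wall and lignin regulators. Of 12 tested genes of that list none was called by limma (1 higher and 2 lower at an unadjusted p under 0.05, against 9.53% and 10.0% of all genes). The median was -0.17, and LjMYB50 gave -0.60 (adjusted p = 0.247). LjMYB63, whose Arabidopsis namesake activates lignin genes as MYB58 does, is named here after its values were seen: it read -5.51, -6.51 and -5.42 in wild type and -3.93, -5.88 and -4.76 in the lines, with a change of 1.13 (interval -0.46 to 2.71, adjusted p = 0.402). Line 2 lay within the wild type range. Among 9 tested numbers of cuticle and suberin regulators LjMYB39 alone was called, as higher, where 2.21% of all tested genes were. LjMYB17 gave -0.71 and -0.76 at its 2 probes (limma adjusted p = 0.130 and 0.136), and the list median was -0.04. Among 7 tested numbers of drought and abscisic acid responses LjMYB44 alone was called, as lower, where 1.09% of all tested genes were. LjMYB116 gave -1.03 (adjusted p = 0.181), with a list median of -0.23. At an unadjusted limma p under 0.05 the cuticle list had 1 higher and 1 lower, and the drought list 0 and 2. The shares of all genes were again 9.53% and 10.0%.

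For 9 tested names with numbers of flavonol, anthocyanin and proanthocyanidin regulators the median was -0.54 and 2 of 9 changes were positive. Over all genes the median was -0.09 and 1046 of 2487 changes were positive. None was called by limma (1 higher and 3 lower at an unadjusted p under 0.05, against 9.53% and 10.0% of all genes). The 3 lower were LjMYB114, LjMYB90 and LjMYB90a. The last 2 moved alike and may be 1 gene, and both count in the median. LjMYB113 and LjMYB114, with 0.74 and -1.13, lay on opposite sides of wild type. LjMYB15, whose Arabidopsis namesake is of the same subgroup as MYB14, read -2.38, -2.41 and -2.39 in wild type and -3.12, -2.15 and -3.03 in the lines, with line 2 above wild type and lines 1 and 3 below it (-0.37, adjusted p = 0.631). Further lists were those of gibberellin, anther and pollen (9 tested), glucosinolate, a pathway of Brassicales (4), epidermal cell fate (3) and meristem and leaf polarity (4). None of their members was called by limma. The medians were -0.06, 0.06, -0.12 and -0.57, with 0 higher and 1, 1, 1 and 2 lower at an unadjusted p under 0.05. Lists this small say little beside the shares of all genes given above. Their leading members not given above were LjMYB125 (-0.79), LjMYB35 (-0.50), LjMYB28 (0.12), LjMYB23 (0.28) and LjMYB68 (-1.11), with adjusted p from 0.241 to 0.876. Lists for 3-repeat MYB and for phosphate and MYB-related names found no member.

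The classes without numbers held no called member (limma; of their 91 tested members 5 were higher and 10 lower at an unadjusted p under 0.05, or 5.49% and 11.0%, against 9.53% and 10.0% of all genes). The SHAQKY class had the lowest median of the 4 large classes, -0.32 over 22 genes, with 16 negative and 6 positive. Of its members 6 had all lines below wild type (27.3%) and none had all lines above, where 21.1% and 15.4% of all genes did so. Its medians in lines 1, 2 and 3 were -0.18, -0.38 and 0.03, where those of all genes were -0.07, -0.12 and -0.0007. In both, line 3 had the highest median and line 2 the lowest. The SHAQKY members with the smallest p, named after their values were seen, were LjMYB-SHAQKY24 (-0.87, limma adjusted p = 0.144) and LjMYB-SHAQKY17 (-0.63, adjusted p = 0.168). LjMYB-SHAQKY17 read -0.76, -0.91 and -0.80 in wild type and -1.58, -1.34 and -1.54 in the lines. The class median stayed negative under the 4 other scalings and background corrections tried, from -0.54 on the spike-in probes to -0.13 with normexp. The median of all genes was negative under each of them too, at -0.31 on the spike-in probes and -0.07 with normexp.

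The GARP-G2-like class had a median of -0.16 over 28 genes, with 8 genes whose lines all lay below wild type (28.6%, against 21.1% of all genes) and 1 above (3.57%, against 15.4%). Of its intervals 14 of 28 lay within a 2-fold change, against 69 of 192 in the family. At the ends of the class were LjMYB-GARP-G2-like20, with -0.98 (adjusted p = 0.136) and LjMYB-GARP-G2-like15, with 0.67 (adjusted p = 0.179), both named after their values were seen. LjMYB-GARP-G2-like20 read 0.51, 0.24 and 0.43 in wild type and -0.92, -0.23 and -0.73 in the lines, and its second probe gave -0.99. The MYBother class was the one with a positive median, 0.07 over 38 genes, against -0.09 over all genes. Scaled on the spike-in probes its median was -0.15, against -0.31 over all genes. The class held the most negative changes of the family, those of LjMYBother19 and LjMYBother38. All lines lay above wild type for 6 of its genes (15.8%, against 15.4% of all genes) and below for 4 (10.5%, against 21.1%), and with quantile normalization these counts were 6 and 10. The numbered class had a median of -0.10 over 101 genes and held 18 of the 22 members with a fold estimate of at least 2, of which 3 in all were called, while it made up 101 of the 192 tested members.

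**Figure D3:**
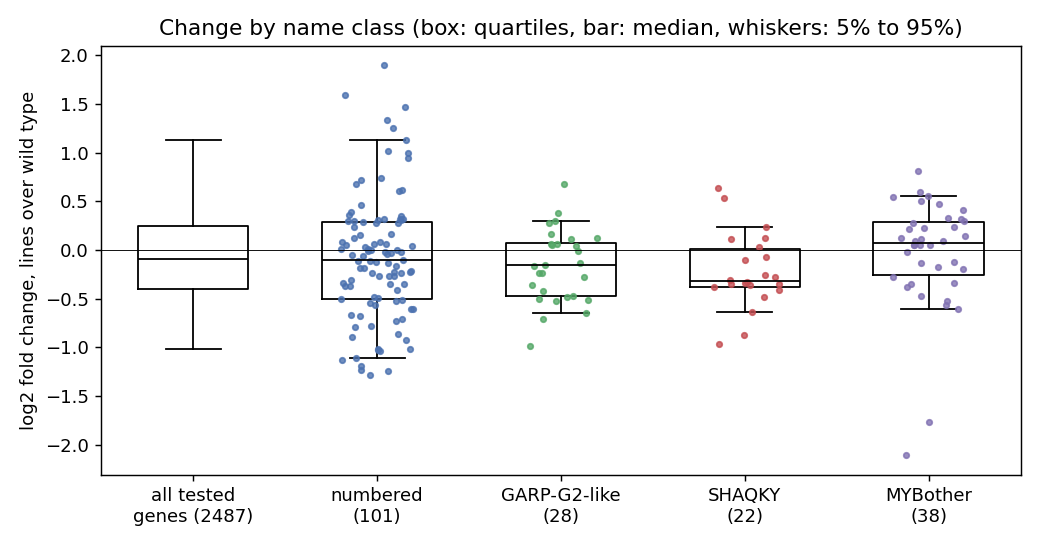
Log2 fold change, lines over wild type, at the brightest probe of all 2487 tested genes and of the MYB genes in the 4 large name classes. Points are single MYB genes, boxes span the quartiles with the median as a bar, and whiskers run from the 5% to the 95% point; the SHAQKY median, -0.32, lies lowest and the MYBother median, 0.07, highest.

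The lines differed from each other for many members. The range between the 3 lines was over 1 log2 unit for 57 members (29.7%), against 28.0% of all genes. Line 2 was the one that differed most often: it lay over 1 unit from the mean of lines 1 and 3, themselves within 1 unit of each other, for 30 members (15.6%), 24 of them lower and 6 higher in line 2. Line 2 stood apart for 14.6% of all genes, a share close to that of the members. The split by direction is not given for all genes, and the 24 to 6 split is therefore not a trait shown for MYB genes. Over all genes, too, line 2 had the lowest median change (-0.12, against -0.07 for line 1 and -0.0007 for line 3). The count of members for which a line stood apart in this way was 11 for line 1 (5.73%, against 2.77% of all genes) and 12 for line 3 (6.25%, against 6.19%).

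LjMYB115 showed the widest range between lines. It was at -2.41 and -1.61 in lines 1 and 3 and at -6.18 in line 2, and wild type lay between them at -2.43, -3.54 and -3.44. Its mean change was -0.16 with an interval from -3.56 to 3.23, and its other, dimmer probe did not repeat the pattern, with -6.58, -5.85 and -5.35 in lines 1, 2 and 3. LjMYB137 read -4.23, -7.21 and -4.72 in the lines against -5.51 to -5.26 in wild type. LjMYBother44 read -3.55, -5.86 and -2.92 in the lines against -4.34 to -3.66 in wild type, and its other probe gave the same order of lines with a smaller gap, -3.84, -4.92 and -3.55. For each of these, lines 1 and 3 were above the wild type mean and line 2 below it, and the mean change over lines was 0.04 for LjMYB137 and -0.02 for LjMYBother44. LjMYBother38 and LjMYB1 were of the opposite kind, with line 2 above lines 1 and 3 by 2.03 and 1.33.

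**Figure D4:**
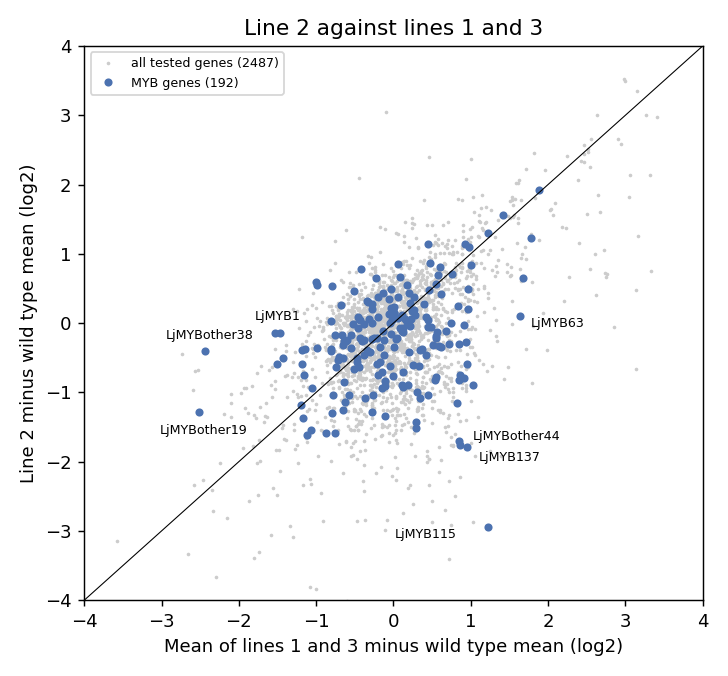
Log2 difference of line 2 from the wild type mean (vertical) against the mean difference of lines 1 and 3 (horizontal) for 192 MYB genes (blue) and all tested genes (grey; 12 lie outside the axes). On the diagonal line 2 equals the mean of lines 1 and 3, which may themselves differ. LjMYB115, LjMYB137 and LjMYBother44 lie far below the diagonal and LjMYBother38 far above.

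Wild type varied too. Wild type array 2 lay over 1 log2 unit from the mean of arrays 1 and 3 for 17 members (8.85%), against 5.31% of all genes. Among members above background on all arrays, LjMYB-GARP-G2-like27 had the widest wild type range, at -5.27, -3.26 and -3.39 on arrays 1, 2 and 3, so here array 1 stood apart from array 3 although the pair was counted as 1 sample. LjMYB-SHAQKY25 came next, at -5.00, -6.51 and -4.77, followed by LjMYB34.

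At the other end, 3 members scarcely varied over the 6 arrays. LjMYB-GARP-G2-like6 stayed between 0.69 and 0.90 (change 0.06, interval -0.42 to 0.54), LjMYB144 between -1.26 and -1.05 (-0.03, interval -0.50 to 0.45) and LjMYB-SHAQKY4 between 0.15 and 0.38 (-0.07, interval -0.55 to 0.41). All 3 intervals lay within a 2-fold change.

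Of 146 members with at least 2 tested probes, 121 had the same sign at all of them (82.9%, against 82.8% of all genes), and the median gap between the probes' log2 fold changes was 0.149. The gap was over 1 in 3 members. The widest gap among members whose probes differed in sign was 1.18, for the member coded Myb\12\rc, with 0.44 and -0.74 at its 2 probes.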

How the data were processed

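The deposited intensity of each spot was read with Agilent Feature Extraction 10.7.3.1, per the submitters' processing notes, and is background-subtracted and not scaled between arrays, per the file headers. The deposited value table held the same intensity in 91068 of 91068 cells, to a relative tolerance of 1e-06. Here the log2 intensity less the 75th percentile of each array, taken on 14642 spots that are not controls, was used. That percentile was 364 to 404, 71.7% to 78.0% of spots were well above background, none was saturated, and 32 to 78 outlier-flagged spots per array were left out. Spots of a probe were averaged. Testing needed 3 arrays on which a share of 0.5 or more of the probe's spots was above background. The brightest probe stood for a gene, and levels of different probes were not compared. limma 3.58.1 (lmFit, eBayes; R 4.3.3) was fitted over all probes with 3 residual and 2.54 prior degrees of freedom, so precision is limited by how few arrays there are. In 5 simulated runs of this comparison over 5039 probes, with 100 changed per fold size, 14.6% of the 2-fold and 56.4% of the 4-fold changes were recovered, beside 3.2 false calls per run.

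The members and lists were chosen with earlier results of these data known. Members named are those called, the 6 largest rises and falls among others with lines beyond wild type, up to 2 of smallest p per number list, and 3 each of widest range between lines, widest range in wild type and smallest range. Others are stated as such. Names are the array's own: the reference table of RefSeq genes matched 0 of 289. Alternatives were another scaling (none, quantile, spike-in), background correction, filter, gene mean, blocks and left-out arrays. All arrays lay on 1 slide with 1 scan time, so only the slide row could be tested as a batch.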

Additional observations from a re-analysis of the deposited data

How the results depend on the processing

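Counts are given as higher and lower in the lines, and as reported they were 2 and 1 for MYB genes, 3 and 1 for MYB probes and 55 and 27 for all genes. With all 6 arrays counted singly they were 10 and 13, 19 and 28, and 167 and 140. With the replicate number as a replicate block on those arrays they were 5 and 4, 11 and 7, and 112 and 72. Same-numbered samples correlated by 0.0097, 0.170 and 0.073 in their deviations from the group mean, and wild type 1 correlated best with line 3 (0.249). Such deviations depend on each other within a group, and wild type arrays 1 and 3 were nearly alike. Whether the numbers pair samples was thus not settled. Unscaled, 2 MYB genes and 3 MYB probes were higher and 0 of each lower (limma; 31 MYB genes at an unadjusted p under 0.05 in either direction), 14 of all genes were lower, and the median of all genes was -0.0016. Quantile normalization gave 4 MYB genes and 9 MYB probes higher. Scaled on spike-in probes the medians moved to -0.32 for MYB genes and -0.31 for all genes, 0 and 0 MYB genes (12 at an unadjusted p), 0 and 0 MYB probes and 6 and 1 of all genes were called, and 5 MYB genes had all lines above wild type. Normexp on the median signal, chosen after seeing the data because no mean signal was given, left 2 MYB genes and 2 MYB probes lower and 83 and 44 of all genes. Without a filter on dim probes 0 and 0 MYB genes (38 at an unadjusted p), 1 MYB probe higher and 34 and 8 of all genes were called. With probes above background on all arrays the counts were 4 and 2 MYB genes and 6 and 3 MYB probes. With the slide row as a block they were 0 and 0 MYB genes (24 at an unadjusted p), 0 and 0 MYB probes, and 1 and 0 of all genes. The mean over a gene's probes left 1 MYB gene higher. The cause of these moves was not tested.

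Leaving out arrays gave 0 to 5 MYB genes higher and 0 to 13 lower, 0 to 12 and 0 to 23 MYB probes, and 3 to 127 and 0 to 82 of all genes. Medians ran from -0.20 to -0.03 for MYB genes and from -0.15 to -0.04 for all genes, and 20 to 45 MYB genes had all lines above and 48 to 62 below wild type, while the shares of all genes ran from 16.4% to 25.5% above and 22.1% to 31.7% below. The highest counts of calls came without line 2. Without line 3 only LjMYB58 was called, and no MYB gene was called without wild type array 2, without line 1 (21 and 16 at an unadjusted p) or without wild type arrays 1 and 3 (0 and 0 MYB genes, 11 at an unadjusted p; 0 and 0 MYB probes; 3 and 0 of all genes; 40 MYB genes with all lines above). LjMYB23, at 0.28 as reported, turned to -0.047 without wild type array 2 and reached 0.44 without line 2. LjMYB28, at 0.12 as reported, turned to -0.095 on spike-in probes, -0.0025 without wild type array 3 and -0.040 without line 1, and reached 0.37 without line 2. Of the other values of single named genes under these settings, 34 passed the threshold newly and 26 lost it. A further 6 values, of the smallest-range members LjMYB-GARP-G2-like6, LjMYB144 and LjMYB-SHAQKY4, moved by more than the SD between lines, and 490 did none of these. This does not mean that the sign held: with arrays left out, LjMYB115 ran from -1.06 to 1.23, LjMYB137 from -0.53 to 0.96, LjMYBother44 from -0.61 to 0.86, LjMYB-SHAQKY25 from -0.28 to 1.35 and LjMYB-GARP-G2-like27 from -1.01 to 0.06, and LjMYB144 and LjMYB-SHAQKY4, near 0, also crossed it.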
